A study of Mus musculus with 16 samples.

Results

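The genes Slurp1, Slurp2, Lynx1, Ly6d, Lypd3 and Ly6g6c encode small cysteine-rich proteins of the Ly6/uPAR family. They were taken by name from the deposited table of esophageal gene expression, which lists 41411 genes, and all 6 were found and passed the filter on low values, which asked for 5 or more in no fewer than 4 libraries and left 16748 genes. The list was put together by name, but with the measured response of WT mice to OXA already known, so the members were in effect chosen on values from the WT OXA and WT vehicle libraries. Comparisons that take values from the WT libraries are therefore given for the members as a description, with no p-value.

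The study measured RNA of whole esophagus from C57BL/6 mice in 16 libraries, in 4 groups of 4. The OXA-treated WT group and the vehicle-treated WT group carried the intact Il13ra1 gene, which encodes a receptor chain for IL-13 that pairs with the IL-4 receptor alpha chain. The OXA-treated Il13ra1-/- group and the vehicle-treated Il13ra1-/- group (KO below) lacked it. OXA is oxazolone, a skin-sensitising chemical allergen, used to induce an experimental form of eosinophilic esophagitis, an allergic inflammation of the esophagus. The labels give no age, sex, dose, time, batch or pairing, nor whether wild-type and knockout mice were littermates, so p-values measure the spread between these samples only.

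Proteins of the Ly6/uPAR family share a compact fold of finger-like loops held by disulfide bonds. Some are secreted and others sit on the cell surface on a lipid anchor. Several of them bind nicotinic acetylcholine receptors or tune their activity, and a subset is made by stratified epithelia such as the lining of the mouse esophagus and the epidermis. SLURP1 and SLURP2 are secreted by keratinocytes, and loss of SLURP1 in people causes Mal de Meleda, a thickening of the skin of palms and soles. LYNX1 is best known as a membrane-anchored brake on nicotinic receptors of neurons. LY6D is an anchored protein of differentiating keratinocytes and of early B-lineage cells. LYPD3, also called C4.4A, is an anchored protein of the suprabasal layers of stratified epithelium. The function of LY6G6C, encoded among the Ly6 genes of the major histocompatibility complex, is little known.

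The coding sequences carry the mark of the family near the end of the domain: a pair of cysteine codons, 4 other codons, a further cysteine codon and an asparagine codon. This stretch of 24 bases was found once in each of the 6 members in the GENCODE M21 transcripts, on GRCm38. It is shown because it is what the members share at the sequence level, whatever their response. The lines give the coding strand 5′ to 3′, with the cysteine and asparagine codons in capitals and the variable codons in lower case.
Slurp1: TGTTGCttccgtgacctcTGCAAC
Slurp2: TGCTGCcagtccaatctcTGCAAC
Lynx1: TGTTGCcagtactacctcTGCAAC
Ly6d: TGCTGCcagactgacctaTGCAAC
Lypd3: TGCTGTcagggcccccgcTGTAAC
Ly6g6c: TGCTGTgacaaggataacTGTAAC

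These stretches lie at chr15:74726841-74726864 for Slurp1, chr15:74743006-74743029 for Slurp2, chr15:74751306-74751329 for Lynx1 and chr15:74762461-74762484 for Ly6d, all on the minus strand. They lie at chr7:24640158-24640181 for Lypd3 and chr17:35069427-35069450 for Ly6g6c, on the plus strand. The whole coding sequences hold 110 codons in Slurp1, 97 in Slurp2, 116 in Lynx1, 127 in Ly6d and 152 in Ly6g6c, of which 10 to 11 are cysteine codons. Lypd3 is the long member, with 363 codons and 19 cysteine codons.

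Slurp1, Slurp2, Lynx1 and Ly6d lie close together on chromosome 15, with the family gene Lypd2 between Slurp1 and Slurp2, within 39.3 kb from the lower end of Slurp1 at position 74724318 to the upper end of Ly6d at position 74763620. Slurp2 (74742764 to 74746693) and Lynx1 (74747852 to 74753046) are only 1158 bases apart on the same strand. Lypd3 lies on chromosome 7 (24636550 to 24641118) and Ly6g6c on chromosome 17 (35065388 to 35070050). Of all stretches of 31 bases in the last 400 bases of their transcripts, Slurp2, Lynx1, Ly6d and Lypd3 shared 0% with any other gene. Slurp1 shared 39.5% with Them6, an overlapping gene on the opposite strand. Ly6g6c shared 1.62% with other genes on either strand. Whether reads were counted by strand was not given in the sources used here, so reads of Slurp1 and Them6 cannot be told apart with certainty.

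The libraries were made by CEL-Seq, which sequences a tag near the 3′ end of each transcript, so levels of different genes are not compared. Recovered depth was 20174102 to 27342877 reads in WT OXA libraries, 5611227 to 9551179 reads in WT vehicle libraries, 8823796 to 15202957 reads in KO OXA libraries and 7913040 to 16528455 reads in KO vehicle libraries. Il13ra1 itself read 44.0 to 173.8 in KO OXA libraries, against 584 to 874 in WT OXA libraries, and 31.2 to 64.7 in KO vehicle libraries, against 134 to 226 in WT vehicle libraries. It was not at 0 in the knockout, and the tag may lie outside the deleted part. Levels below are normalised counts, that is, counts divided by 1 size factor per library.

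The epithelial character of the tissue was plain: Krt5, Krt14, Krt4, Krt13 and Trp63 together summed to 434689 to 716667 in WT OXA libraries, against 1239870 to 1846650 in WT vehicle libraries. The same sum was 1222720 to 2677060 in KO OXA libraries and 1318300 to 1624410 in KO vehicle libraries. Nearly all of it was Krt4 and Krt13, keratins of the suprabasal layers, and the basal markers in it did not follow the sum in WT mice. The log2 fold change of OXA over vehicle was -0.22 for Krt5 (adjusted p = 0.477), 0.23 for Trp63 (adjusted p = 0.403) and 2.04 for Krt14 (adjusted p = 4.22e-07). Other basal genes did fall: of 8 listed basal genes, given below, 4 were called lower and 2 higher. Sums for other cell types differed as well. Leukocyte markers (Ptprc, Cd3e, Cd4, with Itgam at 0 throughout) summed to 802 to 974 in WT OXA libraries, against 78.0 to 216 in WT vehicle libraries, and to 330 to 926 in KO OXA libraries, against 131 to 480 in KO vehicle libraries. Skeletal muscle markers (Acta1, Ckm, Myh4, Tnnt3) summed to 54706 to 111423 in WT OXA libraries, against 112399 to 227348 in WT vehicle libraries, and to 96642 to 162853 in KO OXA libraries, against 148754 to 205248 in KO vehicle libraries. Smooth muscle markers (Myh11, Acta2, Des) summed to 14426 to 25947 in WT OXA libraries, against 20284 to 41779 in WT vehicle libraries. In KO mice they summed to 13015 to 20177 in OXA libraries, against 22778 to 25910 in vehicle libraries, without overlap. Airway markers summed to 622 to 1050 in WT OXA libraries, against 35762 to 54364 in WT vehicle libraries. In KO mice they summed to 17167 to 32843 in OXA libraries, against 25498 to 34075 in vehicle libraries. Nearly all of this sum was Cyp2f2, so it follows that gene and does not measure airway cells. Scgb1a1 averaged 10.9 in WT OXA and 92.0 in WT vehicle libraries, and Sftpc 9.07 and 4.95. Foxj1, the defining gene of ciliated cells, averaged 0.740 in WT OXA and 0 in WT vehicle libraries. The part of these shifts in the members' values was not tested, and in bulk RNA fewer cells of a type and less RNA per cell cannot be told apart.

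Among the 6 members the secreted pair, Slurp1 and Slurp2, differed most between the groups of WT mice. Slurp1 read 43.2, 8.72, 6.67 and 22.1 in the WT OXA libraries, against 1318, 1250.2, 693 and 1074 in the WT vehicle libraries. These are 194 reads in all in the deeper WT OXA group, against 2628 reads in WT vehicle. The groups did not overlap, with a mean 53.7-fold lower under OXA, and 86.6-fold lower without WT OXA replicate 1. In KO mice the 4 OXA libraries read 3748, 1225, 2997 and 1473 and the 4 vehicle libraries 1332, 1479, 1281 and 1937. Here the groups overlapped, with 2 OXA libraries above every vehicle library.

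Slurp2 was close to 0 in the WT OXA libraries. It read 5.81, 0.51, 4.71 and 0 in the WT OXA libraries, against 731, 822, 401 and 626 in the WT vehicle libraries. The WT OXA values stand for 16, 1, 12 and 0 reads. The library at 0 held 20174102 reads, which allows up to 3 reads or 0.149 CPM, for counting error only. The group mean was 234-fold lower under OXA, and 371-fold lower without WT OXA replicate 1. In KO mice Slurp2 read 1361, 593, 1309.6 and 625 under OXA, against 572, 813, 761 and 985 under vehicle, and the groups overlapped.

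**Figure D1:**
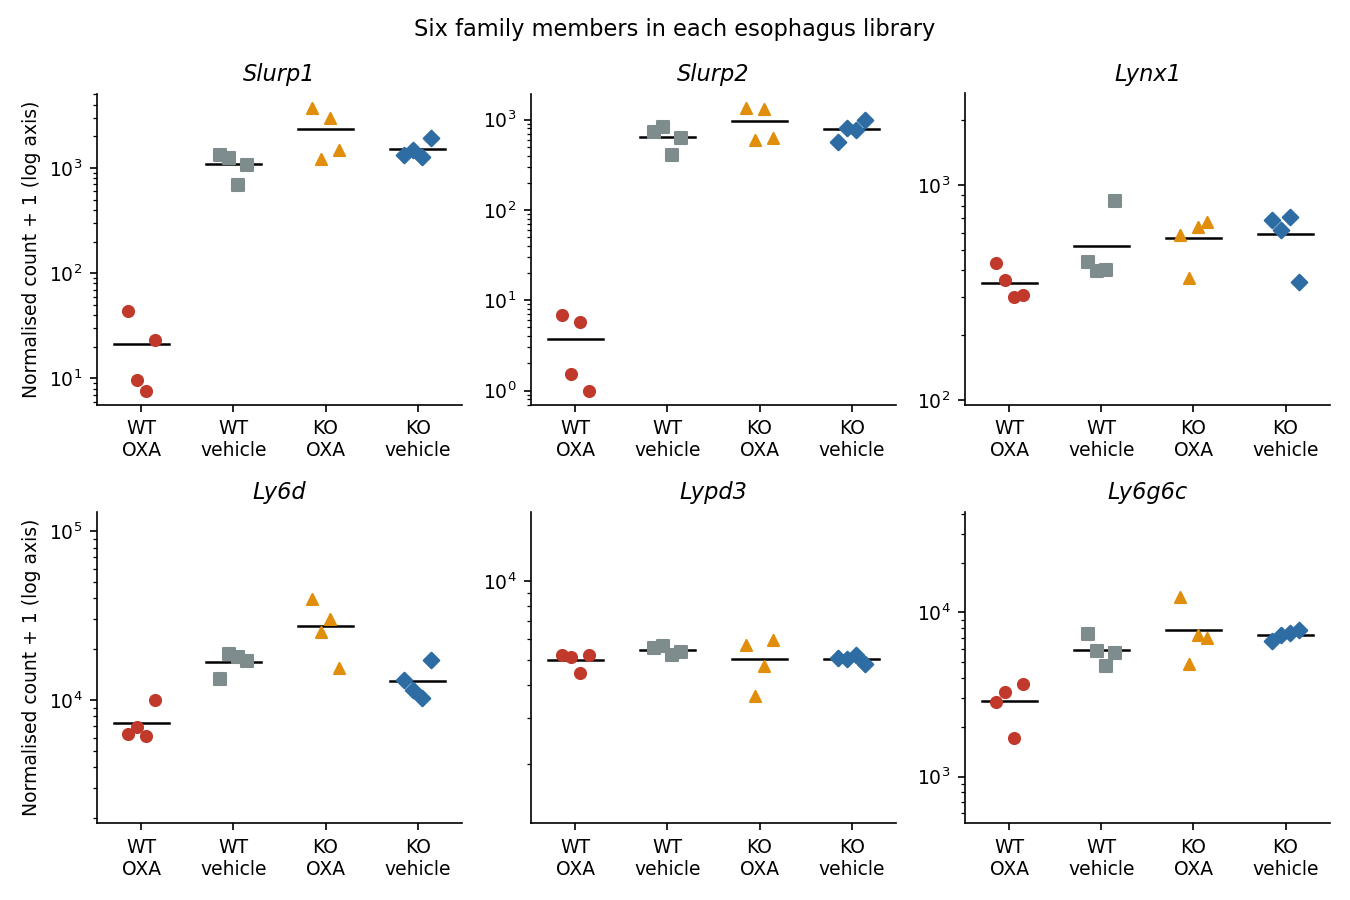
Normalised count + 1 (log axis) of each of the 6 genes in every library, by group, with a bar at the group mean. Slurp1 and Slurp2 sit at 43.2 or less in every WT OXA library and at 401 or more in all other libraries, while the 4 groups of Lypd3 lie at similar levels.

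Lynx1, the membrane-anchored neighbour of Slurp2, overlapped between the WT groups. It read 432, 361, 299.8 and 307 in the WT OXA libraries, against 436, 397, 399.5 and 840.2 in the WT vehicle libraries. The mean was lower under OXA, but 1 WT OXA library lay within the vehicle range, and 1 vehicle library, replicate 4, stood well above the other 3. In KO mice Lynx1 read 587, 368, 637 and 672 under OXA, against 688, 614, 706 and 355 under vehicle.

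Ly6d was lower under OXA in WT mice and higher under OXA in KO mice. It read 6290.0, 6975, 6155 and 10009.8 in the WT OXA libraries, against 13346, 18636, 17895 and 17004 in the WT vehicle libraries. No WT OXA library reached the lowest WT vehicle library, and the mean was 2.27-fold lower. In KO mice Ly6d read 39424, 25160.2, 30139 and 15400 under OXA, against 13065, 11428, 10278 and 17212 under vehicle. Of the KO OXA libraries 3 lay above every KO vehicle library and replicate 4 lay within their range.

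Lypd3 had a smaller difference between the WT groups than any other member. It read 5213, 5117, 4445 and 5216 in the WT OXA libraries, against 5542, 5654, 5181 and 5344 in the WT vehicle libraries. In KO mice it read 5686, 3641, 4726 and 5958 under OXA, against 5077, 5016, 5198 and 4821 under vehicle. Group means were 4997 ± 371 in WT OXA, 5430.4 ± 209.9 in WT vehicle, 5003 ± 1050.4 in KO OXA and 5028 ± 158 in KO vehicle (SD, n = 4 each).

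Ly6g6c read 2855, 3286, 1721 and 3677 in the WT OXA libraries, against 7402, 5807, 4698 and 5654 in the WT vehicle libraries. The groups did not overlap, and the mean was 2.04-fold lower under OXA. In KO mice it read 12342, 4823, 7326 and 6946 under OXA, against 6698, 7305, 7493 and 7827 under vehicle. The KO OXA group spanned the whole KO vehicle range, and its first replicate was the highest of all 16 libraries.

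Slurp1 averaged 20.2 ± 16.8 in WT OXA, 1084 ± 279.9 in WT vehicle, 2361 ± 1212 in KO OXA and 1507 ± 298 in KO vehicle (SD, n = 4 each). Slurp2 averaged 2.76 ± 2.93 in WT OXA, 645 ± 181 in WT vehicle, 972 ± 419.98 in KO OXA and 783 ± 169.9 in KO vehicle. Ly6g6c averaged 2885 ± 845 in WT OXA, 5890.3 ± 1121 in WT vehicle, 7859 ± 3185 in KO OXA and 7331 ± 474 in KO vehicle. For these 3 genes KO OXA ranked highest by mean, before KO vehicle, WT vehicle and WT OXA, and each neighbouring pair of groups in that order overlapped except the last. The share of all genes whose WT groups do not overlap is not given here. Nothing is read from such a gap for any member.

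Ly6d averaged 7357 ± 1804 in WT OXA, 16720.4 ± 2346 in WT vehicle, 27531 ± 10017 in KO OXA and 12996 ± 3035 in KO vehicle. For this gene WT vehicle ranked before KO vehicle, with overlap, and WT OXA again lay below every other library. The 4 groups of Lynx1, with means from 349.8 ± 61.0 in WT OXA to 591 ± 162 in KO vehicle, overlapped throughout.

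In WT mice, the log2 fold change of OXA over vehicle was -5.99 ± 0.43 for Slurp1, -7.82 ± 0.47 for Slurp2, -1.20 ± 0.25 for Ly6d and -1.07 ± 0.25 for Ly6g6c (SE). It was -0.50 ± 0.26 for Lynx1 and -0.12 ± 0.15 for Lypd3. By limma, 4 of the 6 members had an adjusted p below 0.05 with a lower value under OXA, and 0 with a higher one. Of all 16748 genes tested, 16% were called lower and 18% higher. Nothing is read from that contrast, since the response of WT mice was in view when the genes were chosen. The sign for Lypd3 was not stable: it was 0.20 with every library scaled to the same total and 0.22 after quantile normalization. As a description of the scale, no gene tested had a more negative fold change than Slurp2 and 18 had one more negative than Slurp1. With a pseudocount of 5 these numbers were 3 and 11, with edgeR on recovered reads 5 and 39, and with DESeq2 5 and 46.

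**Figure D2:**
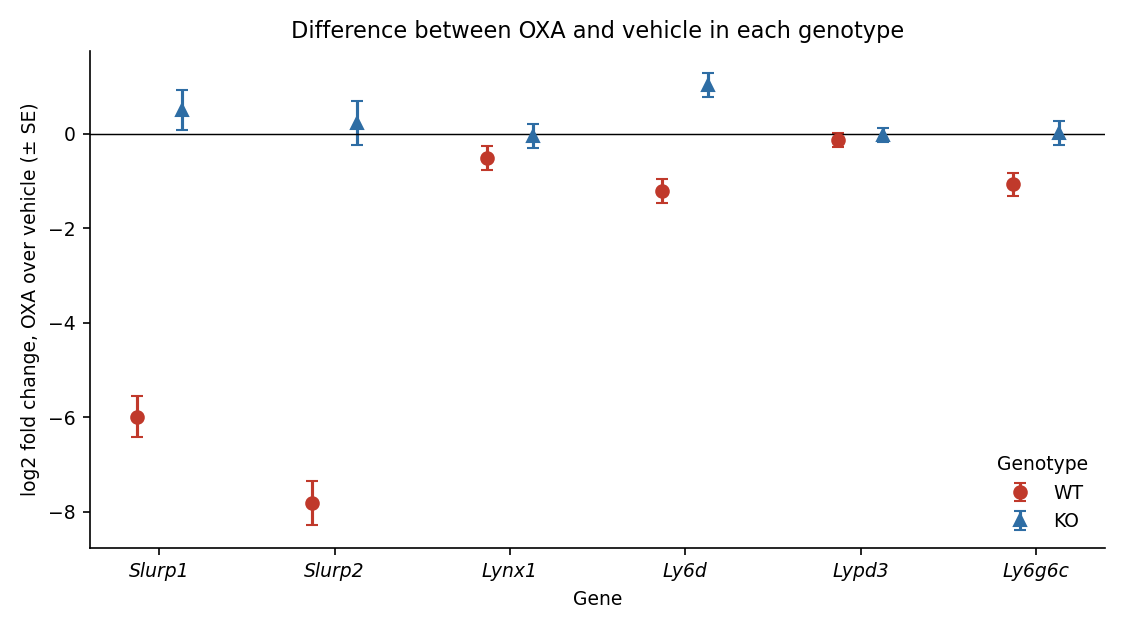
log2 fold change of OXA over vehicle for each gene in WT and in KO mice, with bars of ± 1 SE. The points for Slurp1 and Slurp2 lie at -5.99 and -7.82 in WT and at 0.51 and 0.23 in KO, and Ly6d lies at 1.03 in KO.

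In KO mice the same comparison used none of the WT libraries for its values, only for the shared estimate of the spread. Earlier results of these data were known when the members were chosen, and whether they included this comparison is not recorded. The p-values of the members below carry that limit. Ly6d RNA rose under OXA by 1.03 ± 0.25 on the log2 scale (adjusted p = 0.0365, limma, Benjamini-Hochberg over the whole table). The other members were not called. Slurp1 gave 0.51 ± 0.43 (adjusted p = 0.637) and Slurp2 gave 0.23 ± 0.47 (adjusted p = 0.877). Ly6g6c gave 0.02 ± 0.25 (adjusted p = 0.980), Lynx1 gave -0.05 ± 0.26 (adjusted p = 0.956) and Lypd3 gave -0.03 ± 0.15 (adjusted p = 0.948). Thus 1 of 6 members was called higher and 0 lower, where 1.81% of all genes tested were called higher and 0.0896% lower. That background is 303 genes higher and 15 lower, and single libraries moved it: it was 872 and 155 without KO OXA replicate 4. Without any 1 of KO OXA replicates 1 and 2 and KO vehicle replicates 1 and 3 it was 174 to 199 higher. The summed smooth muscle markers were lower in every KO OXA library than in any KO vehicle library, with none of the 3 genes called singly, and their part in the Ly6d call was not tested. At an unadjusted p below 0.05, 1 member was counted, Ly6d, and edgeR and DESeq2 on recovered reads each called 1.

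The Ly6d call was close to the threshold. It was lost without any 1 of 8 libraries, namely WT OXA replicates 2 and 3, KO vehicle replicates 1, 2 and 3 and KO OXA replicates 1, 2 and 3, with adjusted p from 0.05003 to 0.151 and a log2 fold change from 0.83 to 1.284 over all 16 such fits. It was also lost with no filter (adjusted p = 0.111), with quantile normalization (0.0830) and when only the KO libraries were fitted (0.160), and kept by edgeR (0.0197) and DESeq2 (0.000606).

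The interaction, the OXA effect in KO minus that in WT, was 6.50 ± 0.60 for Slurp1, 8.05 ± 0.67 for Slurp2, 2.23 ± 0.36 for Ly6d and 1.09 ± 0.35 for Ly6g6c on the log2 scale. It was 0.46 ± 0.36 for Lynx1 and 0.09 ± 0.21 for Lypd3. Of the members 4 were called higher, where 10.1% of all genes tested were, and nothing is read from this since it rests on the WT OXA libraries. The value of Ly6g6c was no longer past the threshold without any 1 of 8 libraries (WT vehicle replicate 1, WT OXA replicates 1 and 3, KO vehicle replicates 1, 2 and 3 and KO OXA replicates 1 and 3). The same held with no filter, where library totals were made equal (0.64) and after quantile normalization (0.56).

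Under vehicle, the log2 fold change of KO over WT was 0.50 ± 0.43 for Slurp1, 0.30 ± 0.47 for Slurp2 and 0.33 ± 0.25 for Ly6g6c (SE). It was 0.22 ± 0.26 for Lynx1, -0.38 ± 0.25 for Ly6d and -0.11 ± 0.15 for Lypd3. These take their values from the WT vehicle libraries, which were in view when the genes were chosen, and are given as a description. None of the 6 was among the genes called by limma, edgeR or DESeq2, and at an unadjusted p below 0.05 the count was also 0. Among all genes tested 0.0597% were called in either direction, which is 10 genes, and 3 to 5 without any 1 of 8 libraries (WT vehicle replicates 1 and 3, WT OXA replicates 1 and 2 and each KO vehicle replicate).

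Under OXA, KO mice stood above WT mice by 6.997 ± 0.43 for Slurp1, 8.35 ± 0.47 for Slurp2, 1.85 ± 0.25 for Ly6d and 1.42 ± 0.25 for Ly6g6c on the log2 scale. The value was 0.67 ± 0.26 for Lynx1 and -0.02 ± 0.15 for Lypd3. For Lypd3 it was -0.43 once library totals were made equal and -0.44 after quantile normalization, and past the threshold in both. Again 4 members were called higher, beside 14.6% of all genes tested, as a description only. Lynx1 also passed the threshold with DESeq2, when only the OXA libraries were fitted, and without any 1 of WT vehicle replicate 4, KO vehicle replicate 4 and KO OXA replicate 2.

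The ratio of Slurp1 to Slurp2 counts restates the same values of the secreted pair. It was compared between groups only and is not read as a difference in level between the genes. It was 7.43, 17.1 and 1.42 in the 3 WT OXA libraries with any Slurp2 read, against 1.52 to 1.80 in WT vehicle libraries. In KO mice it was 2.07 to 2.75 under OXA, against 1.68 to 2.33 under vehicle. The WT OXA ratios rest on 1 to 16 Slurp2 reads a library.

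Across the 16 libraries, Slurp1 and Slurp2 had a Pearson r of 0.97 on log2(value + 1). Slurp1 had r of 0.90 with Ly6g6c, 0.80 with Ly6d, 0.62 with Lynx1 and 0.15 with Lypd3. These points share the 4 groups and the same scaling, and the correlations are given as a description. The 3 genes most like each member were named by the same measure among 10735 genes with a mean of at least 50. For Slurp1 they were Lce3e (0.99) and Lce1k (0.99), genes of the late cornified envelope, and Krt32 (0.99), a hair keratin. For Slurp2 they were Lce1m (0.99), also of the late cornified envelope, Gng4 (0.98), a G protein gamma subunit, and Serpinb13 (0.98), a protease inhibitor of squamous epithelium.

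For Ly6g6c the 3 were Elovl1 (0.96), an elongase of very long fatty acids, Wfdc5 (0.96) and Alox12b (0.95), a lipoxygenase of the epidermal barrier. For Ly6d they were Cox7b (0.97), a subunit of cytochrome c oxidase, Prdx1 (0.97), a peroxiredoxin, and Rpl31 (0.97), a ribosomal protein. Under OXA in KO mice these 3 genes gave log2 fold changes of 0.61, 0.73 and 0.82, none called (adjusted p = 0.0974, 0.162 and 0.121, limma). Lynx1 had Card19 (0.92), Spryd4 (0.92) and Slc16a3 (0.91), a lactate transporter. Lypd3 reached no more than 0.80, with Mier2 (0.80), Snrpa (0.79) and Cep170b (0.79).

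The members belong to a tissue whose squamous differentiation genes were also listed. This list and those below were also made with earlier results of these data known. The genes named were mostly those with the smallest p, so their WT values and p-values are a description. Of 19 tested out of 22 listed, 13 fell and 0 rose under OXA in WT mice, with a median log2 fold change of -1.66, where the median of all genes was 0.10. Among all genes tested, 16% were called lower and 18% higher there. In KO mice 0 of 19 were called by limma and by edgeR, 3 by DESeq2 and 4 at an unadjusted p below 0.05, with a median of 0.19. Flg, the precursor of filaggrin, averaged 1.70 ± 1.24 in WT OXA and 219.6 ± 114 in WT vehicle (SD, n = 4 each) and fell by 6.38 on the log2 scale (adjusted p = 5.68e-09). Hrnr, a cornified envelope protein, fell by 5.40 (adjusted p = 8.85e-09), and Casp14, a caspase of cornification, and Krt78 also fell, at -2.61 and -2.53. Of these 19 genes 2 had a more negative fold change than Slurp1 and 0 than Slurp2. Cdsn, the adhesion protein corneodesmosin, gave -0.32 and was not called, as Lypd3 was not. In KO mice Krtdap (0.95, adjusted p = 0.156), Dmkn (0.68, 0.199), Flg (1.42, 0.156) and Cdsn (0.40, 0.346) missed the threshold. Krtdap and Dmkn passed it without KO OXA replicate 4.

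Basal layer genes gave a mixed picture in WT mice. Under OXA 2 of 8 were higher and 4 lower, beside 18% and 16% of all genes, and the median of the 8 was -0.32. After quantile normalization that median was 0.05, and with equal library totals 0.00353. Krt14, a basal keratin, rose to 12461 ± 2388 in WT OXA, against 3026 ± 529 in WT vehicle (SD, n = 4 each, adjusted p = 4.22e-07). Krt15, another basal keratin, fell by 2.38 on the log2 scale (adjusted p = 3.11e-06) and Col17a1, a hemidesmosome collagen, by 1.79. In KO mice 0 of 8 were called by limma and edgeR, 1 by DESeq2 and 3 at an unadjusted p below 0.05. The values there were 0.62 for Krt14, 0.36 for Krt15, -0.45 for Itgb4 and -0.30 for Dst.

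Among the other genes of the Ly6/uPAR family, 24 of 33 in the table were tested. Under OXA in WT mice 18% of all genes tested were called higher and 16% lower. Among these family genes 7 rose and 5 fell, with a median of 0.26. The 4 with the smallest p all fell. Lypd6, which binds nicotinic receptors and Wnt co-receptors, averaged 35.3 ± 11.2 in WT OXA and 226 ± 75.0 in WT vehicle, a log2 fold change of -2.64 ± 0.28 (adjusted p = 8.66e-07). Lypd2 gave -3.62 ± 0.51 (adjusted p = 2.53e-05), Pinlyp -1.78 ± 0.22 (adjusted p = 7.28e-06) and Lypd5 -1.36 ± 0.22 (adjusted p = 8.68e-05). In KO mice these genes gave -0.31 for Lypd6, -0.04 for Lypd2, 0.26 for Pinlyp and 0.31 for Lypd5, none called. The interaction, which uses the same WT libraries that picked these genes, was called for each, from 1.67 for Lypd5 to 3.58 for Lypd2. Nothing is read from that. Of all 24 tested, 5 were called higher and 1 lower in the interaction, where 10.1% of all genes tested were called higher.

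In KO mice 6 of the 24 rose under OXA, beside 1.81% of all genes, and 0 fell, with a median of 0.37. The 4 with the smallest p were Ly6a, Ly6i, Ly6c1 and Ly6e. Ly6a, known as Sca-1 and interferon-responsive, averaged 21001 ± 12676 in KO OXA and 3679 ± 377 in KO vehicle (SD, n = 4 each, adjusted p = 4.59e-05). Ly6c1 rose by 2.06 ± 0.26 (adjusted p = 8.35e-05), Ly6i by 2.62 ± 0.48 (adjusted p = 0.00373) and Ly6e by 0.998 ± 0.22 (adjusted p = 0.0184). The count was 3 without KO OXA replicate 1 or KO vehicle replicate 4, and up to 7 without other libraries. The Ly6e call was lost without those libraries or KO vehicle replicate 1 (adjusted p up to 0.0723), with no filter (0.0541), with equal library totals (0.0687) and after quantile normalization (0.183). Ly6a and Ly6c1 rose in WT mice as well, by 0.94 ± 0.28 (adjusted p = 0.0123) and 1.08 ± 0.26 (adjusted p = 0.00331). The Ly6a, Ly6c and Ly6i genes are close copies, so reads may be split among them. The number that rose in WT mice was 7, and 4 without WT OXA replicate 1 or 2.

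**Figure D3:**
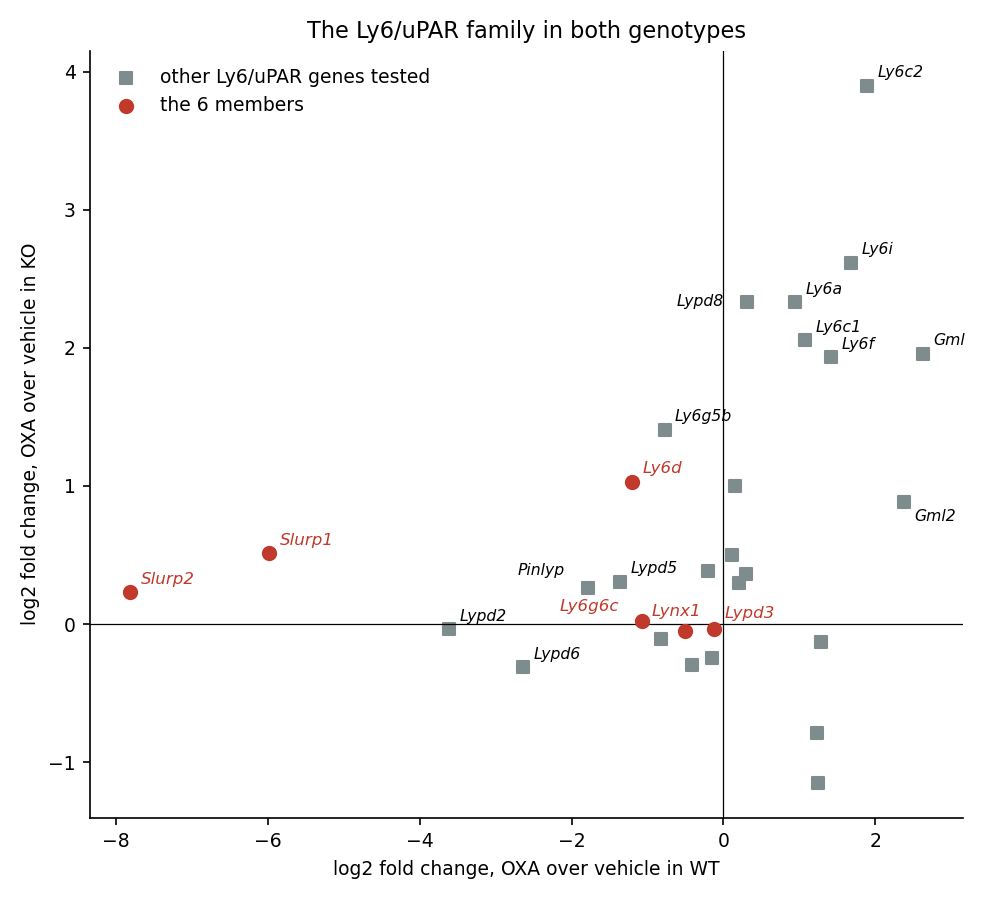
log2 fold change of OXA over vehicle in WT (horizontal) against that in KO (vertical) for the 6 members and the 24 other family genes tested. Slurp1, Slurp2, Lypd2 and Lypd6 lie far to the left near 0 on the vertical axis, and Ly6a, Ly6c1, Ly6c2, Ly6f and Ly6i lie to the upper right.

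Acetylcholine receptors are known partners of several family members. Nicotinic and muscarinic receptors were listed together with genes that make, break down or carry acetylcholine. Of 26 listed genes 13 were tested, and in WT mice 3 fell and 0 rose under OXA, with a median of -0.91. That stands beside 16% of all genes called lower and 18% higher. Chrna9, a nicotinic subunit expressed by keratinocytes, averaged 125 ± 21.4 in WT OXA and 342 ± 131 in WT vehicle (SD, n = 4 each) and fell by 1.37 ± 0.27 (adjusted p = 0.000630). Chrna1, the muscle nicotinic subunit, fell by 1.58 ± 0.34 (adjusted p = 0.00139) in libraries whose skeletal muscle markers were also lower, and the part of these was not tested. Ache, which breaks down acetylcholine, fell by 1.39 ± 0.46 (adjusted p = 0.0245), a call lost without any 1 of WT vehicle replicates 1, 3 and 4 and WT OXA replicates 2, 3 and 4, with no filter and with equal library totals. Chrna3 was not called (-1.90, adjusted p = 0.0813), but passed the threshold with quantile normalization and without WT OXA replicate 2. Chrna7, the nicotinic subunit most often linked to SLURP1 in human cells, was too low to test, at means of 0.488 in WT OXA, 0.772 in WT vehicle, 5.91 in KO OXA and 2.82 in KO vehicle.

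In KO mice none of the 13 was called by limma, edgeR or DESeq2, and 2 had an unadjusted p below 0.05. Chrna1 gave -0.78, Chrna9 -0.56, Chrne -1.35 and Chrm1 -2.53 there. Of the 13 values 12 were below 0 in KO mice and 9 in WT mice. The median of all genes was -0.015 in KO mice and 0.10 in WT mice. The share of all genes below 0 is not given here, and nothing is read from these signs. Without KO OXA replicate 4, Chrne passed the threshold (adjusted p = 0.0276).

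Reported ligands and adhesion partners of Lypd3 were listed as well. Of 6 tested, 4 fell and 1 rose under OXA in WT mice, beside 16% and 18% of all genes, and their median was -0.92. Lgals3, a galectin, averaged 1504 ± 201 in WT OXA and 3409 ± 514 in WT vehicle (SD, n = 4 each) and fell by 1.18 ± 0.18 (adjusted p = 4.95e-05). Lama3 and Lamb3, laminin chains of the epithelial basement membrane, fell by 1.04 ± 0.16 (adjusted p = 5.51e-05) and 1.33 ± 0.22 (adjusted p = 0.000128). Itgb4, the beta chain of the hemidesmosome integrin, fell by 0.80 ± 0.19 (adjusted p = 0.00338), a call lost with equal library totals. Its alpha chain Itga6, which is outside the rule for named genes and was singled out as the 1 gene that rose, gave 0.57 ± 0.15 (adjusted p = 0.00710). In KO mice 0 of 6 were called by limma, edgeR or DESeq2 and 1 had an unadjusted p below 0.05. The values there were 0.36 for Lgals3, -0.07 for Lama3, -0.43 for Lamb3 and -0.45 for Itgb4, which passed the threshold without KO OXA replicate 4. Agr2 and Agr3, secreted ligands of human LYPD3, were below the filter, with group means of at most 3.88 and 2.56.

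Around the 4 members on chromosome 15, the table held 18 further genes whose lower ends lie within 200 kb of theirs, and 13 were tested. In WT mice 4 were called higher under OXA and 3 lower, and in KO mice 1 higher. Of all genes tested 18% were called higher and 16% lower in WT mice, and 1.81% higher in KO mice. Lypd2, 7.93 kb from Slurp1, was the nearest called neighbour. The other 2 genes called lower, D730001G18Rik (-2.10) and 2010109I03Rik (-1.81), lie 8.85 kb and 114.9 kb from the nearest member and were named after their values were seen. Them6 (0.15, adjusted p = 0.825) and Jrk (0.17, adjusted p = 0.765), on the other side of Slurp1, were not called, nor were Psca (1.24, adjusted p = 0.0659) and Ly6k (0.12, adjusted p = 0.936). Arc rose by 3.79 (adjusted p = 0.00160), and Gml, Gml2 and Gm39556 were called higher, with values from 2.37 to 2.71. Genes that fell in WT mice thus lay among genes that rose or were not called. Ly6e was the gene called higher in KO.

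**Figure D4:**
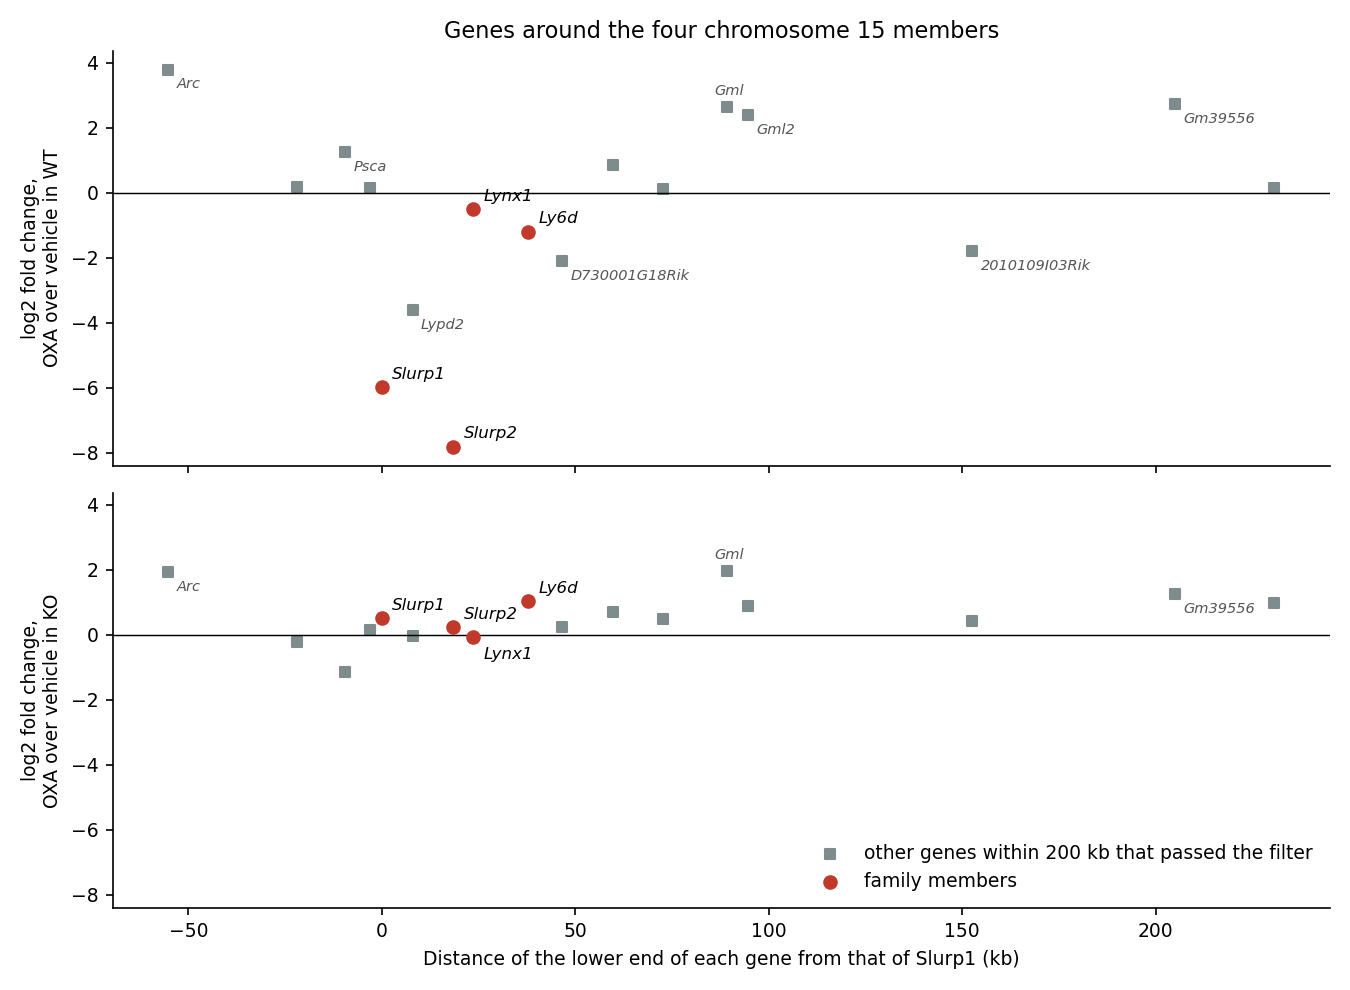
log2 fold change of OXA over vehicle in WT (upper) and KO (lower) for the 4 chromosome 15 members and the 13 neighbours tested, by distance in kb from the lower end of Slurp1. Slurp1, Slurp2 and Lypd2 form the lowest points in WT, and no such low points appear in KO. D730001G18Rik, 2010109I03Rik and Ly6d (-1.20) come next in WT, and Lynx1 lies at -0.50.

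Near Lypd3 on chromosome 7, 2 of 12 tested neighbours rose and 3 fell in WT mice, among them Pinlyp, and none was called in KO mice by limma, where 2 had an unadjusted p below 0.05. Near Ly6g6c on chromosome 17, 6 of 32 rose and 7 fell in WT mice. The WT counts near Lypd3 and Ly6g6c stand beside 18% of all genes called higher and 16% lower, and nothing is read from them. Ly6g6e, a family gene 11.5 kb from Ly6g6c, fell by 0.82 ± 0.19 (adjusted p = 0.00289). In KO mice 3 of the 32 rose, where 1.81% of all genes did. They were Aif1 and Lst1, which are leukocyte genes, and H2-D1, a class I histocompatibility gene.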

How the data were processed

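RNA of mouse esophagus was profiled by CEL-Seq on a NextSeq550, per the labels' protocols. Per the submitters' processing notes, reads were handled with FastQC 0.11.5, Trim Galore, cutadapt 1.10, TopHat2 2.1.0, Bowtie2 2.2.6, HTSeq 0.6.1 and DESeq2 1.28.0, on GRCm38. Neither the annotation release nor any use of molecular identifiers is stated in the sources used here. The deposited signal is a count per gene over a size factor for its library. Within each library 100% of values were whole multiples of 1 read (to within 0.1 read), which allowed reads to be recovered.

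Fits used limma 3.58.1 (R 4.3.3) on log2(value + 1), which understates changes of low genes, with 4 group means over all 16 libraries, eBayes with trend, two-sided, Benjamini-Hochberg adjustment over the 16748 genes tested and a threshold of 0.05. All adjusted p-values are from it unless another tool is named. It was also run on simulated counts with a fixed spread and few changed genes, a setting without the broad shifts between groups seen here. The same genes were tested with edgeR 4.0.16 and DESeq2 1.42.0 on recovered reads as alternatives. Other alternatives were pseudocounts of 0.5 and 5, no filter, a filter of 20, equal library totals, quantile normalization, fitting only the groups compared and leaving out each library.

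The members, gene lists and tests were chosen with earlier results of these data known. The genes named were the members, the 3 most like each member, up to 4 per list and genotype with the smallest p, and neighbours within 200 kb, those on chromosomes 7 and 17 mostly as counts. Codes in the sample titles pair no libraries. Coding sequences came from GENCODE M21, whose coordinates matched the table for 100% of the members. Interval and floor statements cover counting error only. The summed neuron markers are not reported here.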

Additional observations from a re-analysis of the deposited data

Results flagged for a closer look

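Of 24 groups of 4 libraries examined, 2 held a library far from the other 3, where chance gives about 1 in 20. For Lynx1 in WT vehicle, replicate 4 read 840.17, against 397 to 436 in the other replicates. For Lypd3 in WT OXA, replicate 3 read 4444.52, against 5117 to 5216 in the other replicates.

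The interaction term, the OXA effect in KO minus that in WT, was past the threshold for 4 members, at 6.50 for Slurp1, 8.05 for Slurp2, 2.23 for Ly6d and 1.09 for Ly6g6c on the log2 scale. The Ly6g6c call was lost in 8 of the 16 fits that left out 1 library. These values are a description and show no difference by themselves, since they rest on the WT libraries, which were in view when the genes were chosen.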

How the results depend on the processing

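The number of members called in either direction was 4 in WT mice, 0 under vehicle and 4 or 5 under OXA in every alternative, and 3 or 4 for the interaction. Under OXA the counts mix directions, since Lypd3 was called lower in KO with equal library totals and after quantile normalization. The calls among all genes moved with the setting too, as given below. In KO mice it was 1, and 0 with no filter, with quantile normalization and when only the groups compared were fitted; leaving out 1 library gave 0 to 1. Values near 0 changed sign. For Lypd3 in WT, equal library totals gave 0.20 and quantile normalization 0.22, and for its interaction -0.35 and -0.48. For Ly6g6c in KO they gave -0.10 and -0.27. Quantile normalization gave 0.0338 for Lypd3 under vehicle, and DESeq2 gave 0.00189 for Lypd3 between genotypes under OXA. Leaving out 1 library at a time gave -0.28 to 0.15 for Lynx1 in KO, -0.13 to 0.11 for Lypd3 in KO, -0.23 to 0.23 for Ly6g6c in KO, -0.00314 to 0.23 for the interaction of Lypd3, -0.11 to 0.12 for Lypd3 between genotypes under OXA and -0.11 to 0.0064 for Lama3 in KO. The cause was not tested.

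Equal library totals moved the median of all genes in WT from 0.10 to 0.41 and the calls from 3019 higher and 2673 lower to 5107 and 1496. For the interaction it moved them from 1698 higher and 1284 lower to 883 and 3459, and for KO against WT under OXA from 2450 and 2167 to 1273 and 5111. No paired analysis was possible because the title codes differ between the groups and pair no libraries. Slurp2 in WT OXA rests on 29 reads in all, so its fold change there depends on the pseudocount. Without length or molecular identifiers, levels of different genes could not be compared.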
